A study of Mus musculus with 3 samples.

Results

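The genes described are 10 of the 32285 mouse genes counted in the files, chosen by symbol as genes of the thin filament and of the sarcomeric actins with their nearest anchors. They are the actins Acta1 and Actc1, the tropomyosin Tpm1, the troponins Tnnt2, Tnni3, Tnnc1 and Tnni1, and the Z-disc and titin genes Actn2, Pdlim3 and Ttn. Their transcripts were counted by Visium spatial transcriptomics, in which each barcoded spot under a cryosection collects the RNA of several neighbouring cells. The study asked what Shexiang Baoxin Pill (SBP, MUSKARDIA) does in myocardial ischemia-reperfusion (I/R) injury, and the files hold 3 heart sections, 1 from each group. All mice were of the strain C57BL/6, 8 weeks old, and no genotype beyond the strain is given. The sham mouse received vehicle by gavage for 7 days and then the operation with the needle passed but the artery not tied. The I/R mouse received vehicle for 7 days, then 30 min of ligation of the left anterior descending coronary artery and 24 h of reperfusion. The SBP mouse had the same ligation and reperfusion after 7 days of SBP.

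With 1 section per group there is no replicate and no test, so a difference between sections cannot be told apart from a difference between single mice, planes of section or libraries. The kept spots numbered 1960 to 2234 per section and held 21631280 to 30238530 unique molecular identifiers (UMIs), with a median of 10645 to 14672 per spot and 44.3% to 48.6% of UMIs from the mitochondrial genome. A level is given as UMIs per 1000000 UMIs (CPM), with an exact Poisson 95% interval that covers counting error only. A ratio is given on the log2 scale with an exact conditional binomial interval of the same kind. A gene counted as tested with at least 50 UMIs over the sections or spots compared, and as called with a difference of at least 1.5-fold. The 7 cardiomyocyte markers were all present in every section, at a summed 43179 CPM in the sham heart, 32249 CPM in the I/R heart and 40034 CPM in SBP.

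The thin filament is a double strand of actin with tropomyosin lying along it and a troponin complex at regular steps. Calcium binds troponin C (Tnnc1), troponin I (Tnni3) lets go of actin, troponin T (Tnnt2) passes the shift to tropomyosin (Tpm1), and myosin can then bind. The adult mouse ventricle uses mostly cardiac actin (Actc1) and little skeletal actin (Acta1), which is abundant in the fetal heart and returns under load. Alpha-actinin 2 (Actn2) ties the filaments into the Z-disc, Pdlim3 is a small protein that binds alpha-actinin there, and titin (Ttn) spans from the Z-disc to the M-line. Tnni1 is the slow skeletal troponin I that the heart uses before birth. Ankrd1, a stress-responsive protein of the cardiomyocyte nucleus and sarcomere, was the gene by which the study set infarct apart from non-infarct areas, and it serves here to group spots.

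Acta1 lies at chr8:123891769-123894751 and Actc1 at chr2:114047282-114053548, both on the minus strand of GRCm38, and Tnni3 at chr7:4518305-4524229 on the same strand. The bases before their starts are shown because these genes gave the clearest patterns across the spots. They are RefSeq sequences of the build GRCm38.p6, 5′ to 3′ in the direction of the gene, trimmed of annotated exon bases. The start is the one in the RefSeq table, which lies within the GENCODE span given here for Actc1 and Tnni3 and just upstream of it for Acta1. Acta1 has chr8:123894776-123895025, Actc1 chr2:114052888-114053125 and Tnni3 chr7:4522529-4522694, all from the minus strand. Capitals mark a CArG box, the site of serum response factor, and the letters CATTCC, which TEAD factors bind.
Acta1: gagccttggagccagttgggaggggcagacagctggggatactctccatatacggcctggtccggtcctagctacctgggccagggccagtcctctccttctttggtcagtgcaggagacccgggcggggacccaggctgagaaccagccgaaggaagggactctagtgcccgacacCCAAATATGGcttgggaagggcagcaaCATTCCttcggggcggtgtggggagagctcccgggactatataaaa
Actc1: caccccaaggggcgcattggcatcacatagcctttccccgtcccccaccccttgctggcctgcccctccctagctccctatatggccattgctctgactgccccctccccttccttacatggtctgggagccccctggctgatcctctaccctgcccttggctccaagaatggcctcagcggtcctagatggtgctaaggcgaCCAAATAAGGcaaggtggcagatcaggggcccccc
Tnni3: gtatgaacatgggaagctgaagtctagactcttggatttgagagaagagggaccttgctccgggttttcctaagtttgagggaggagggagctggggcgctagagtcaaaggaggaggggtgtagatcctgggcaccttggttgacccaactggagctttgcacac

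The search covered both strands of the 250 bases before each start, where all 10 genes were matched, and the letters GGAATG counted as CATTCC on the opposite strand. Acta1 had a CArG box 73 to 64 bases before its start and Actc1 had one 47 to 38 bases before. These were the only CArG boxes found among the 10 genes, and boxes that deviate from the letters searched are not counted. Of all 32851 windows of this length, 1.47% held a CArG box. CATTCC was found before Acta1, Tpm1, Tnnt2, Tnnc1 and Pdlim3, and in 12.6% of all windows. Unlike the sequences shown, the windows searched were not trimmed of annotated exon bases. The Tpm1 match, 56 to 51 bases before the start, lay in such bases, as did a Pdlim3 match at 11 to 6. A MEF2 box was found before Ttn alone of the 10, and in 2.92% of all windows. The stretch shown for Tnni3 held none of these letters. A match describes the sequence and is no evidence of binding, and no match says only that these letters are not in the window.

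Both actins were lower in SBP than in sham or I/R, and they differed in I/R against sham, where Acta1 was nearly level and Actc1 lower. Acta1 was at 396 CPM in the sham heart (95% interval 388 to 404), 415 CPM in the I/R heart (408 to 422) and 303 CPM in the SBP heart (296 to 311). The sham and I/R levels lay close together and the SBP level lay below both. Actc1 was at 6678 CPM in the sham heart (6646 to 6710), 5212 CPM in the I/R heart (5186 to 5238) and 4872 CPM in the SBP heart (4843 to 4902), so that both ligated hearts lay below sham. I/R over sham, the log2 ratio was 0.067 for Acta1 (0.029 to 0.11) and -0.36 for Actc1 (-0.37 to -0.35). SBP over I/R, it was -0.45 for Acta1 (-0.50 to -0.41) and -0.097 for Actc1 (-0.11 to -0.086), and SBP over sham -0.38 and -0.45.

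The sign of these ratios depends on the scaling where they are small. The median log2 ratio of all tested genes was 0.24 when I/R was set over sham and -0.17 when SBP was set over I/R. Median-of-ratios size factors, which bring that median near 0, gave a ratio of -0.17 for Acta1 in I/R over sham and 0.065 for Actc1 in SBP over I/R, both of the opposite sign.

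The ratio of the actins does not depend on the scaling. Per 100 Actc1 UMIs the sham heart had 5.93 of Acta1 (5.81 to 6.05), the I/R heart 7.96 (7.81 to 8.11) and the SBP heart 6.22 (6.07 to 6.38). The ratio was highest in I/R, and the sham and SBP values were close, with intervals that do not overlap. Reads of the actins can be alike in the coding part. Of the 91-base windows along the Acta1 transcript, 0 of 1356 were identical to one in Actc1, and 0 of 1383 the other way. UMIs from the 3′ end do not measure the molar ratio of the proteins, so the ratio is compared only between sections and kinds of spot.

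Tpm1, the main striated tropomyosin, lies at chr9:67022590-67049406 on the minus strand. Its level was 5451 CPM in the sham heart (5422 to 5480), 4427 CPM in the I/R heart (4404 to 4451) and 5266 CPM in the SBP heart (5236 to 5297). The I/R section was the lowest, and SBP lay close to sham. The log2 ratio was -0.30 (-0.31 to -0.29) for I/R over sham, 0.25 (0.24 to 0.26) for SBP over I/R and -0.050 (-0.061 to -0.038) for SBP over sham.

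The troponin genes Tnni3 and Tnnc1 showed the widest gaps of the members between sham and I/R. Tnni3, the inhibitory subunit, was at 6464 CPM in the sham heart (6433 to 6496), 4494 CPM in the I/R heart (4471 to 4518) and 5831 CPM in the SBP heart (5799 to 5863). Tnnc1, the calcium sensor at chr14:31208312-31211729 on the plus strand, was at 3655 CPM in the sham heart (3632 to 3679), 2522 CPM in the I/R heart (2504 to 2540) and 3274 CPM in the SBP heart (3250 to 3298). For both genes I/R was lowest and SBP lay between I/R and sham. I/R over sham, the log2 ratio was -0.52 for Tnni3 (-0.53 to -0.51) and -0.54 for Tnnc1 (-0.55 to -0.52). SBP over I/R, it was 0.38 for each (0.36 to 0.39). These values stood at the edge of the genome-wide range, since the 5th percentile of all tested genes was -0.50 for I/R over sham and the 95th was 0.39 for SBP over I/R.

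Tnnt2, which holds troponin to tropomyosin, lies at chr1:135836354-135852260 on the plus strand. It was at 3444 CPM in the sham heart (3421 to 3467), 3062 CPM in the I/R heart (3043 to 3082) and 3917 CPM in the SBP heart (3891 to 3943). SBP was thus the highest of the sections for this gene, with log2 ratios of 0.36 over I/R (0.34 to 0.37) and 0.19 over sham (0.17 to 0.20). Tnni1 lies on the same chromosome and strand, at chr1:135779434-135810989. Its UMIs numbered 8 (sham), 11 (I/R) and 8 (SBP), or 0.318 CPM (0.138 to 0.628), 0.364 CPM (0.182 to 0.651) and 0.370 CPM (0.160 to 0.729), too few to be tested. Per 100 UMIs of Tnni3 there were 0.00493 to 0.00809 of Tnni1, and no difference between sections was detectable at this depth.

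Among the anchors, Ttn at chr2:76703980-76982547 on the minus strand was at 842 CPM in the sham heart (831 to 853), 676 CPM in the I/R heart (667 to 685) and 801 CPM in the SBP heart (789 to 813). Actn2 at chr13:12269426-12340760, also on the minus strand, was at 627 CPM in the sham heart (617 to 636), 569 CPM in the I/R heart (560 to 577) and 643 CPM in the SBP heart (633 to 654). Both had the lowest value in I/R. For Actn2 the level intervals of SBP and sham overlap, while the log2 ratio of SBP over sham was 0.038 (0.0049 to 0.071), just above 0. The sign of that ratio turned with median-of-ratios size factors, at -0.037. Pdlim3 at chr8:45885461-45919548 on the plus strand rested on 221 to 319 UMIs per section, at 11.8 CPM in the sham heart (10.5 to 13.2), 10.5 CPM in the I/R heart (9.42 to 11.8) and 10.2 CPM in the SBP heart (8.91 to 11.7), and its intervals overlap in all sections.

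**Figure D1:**
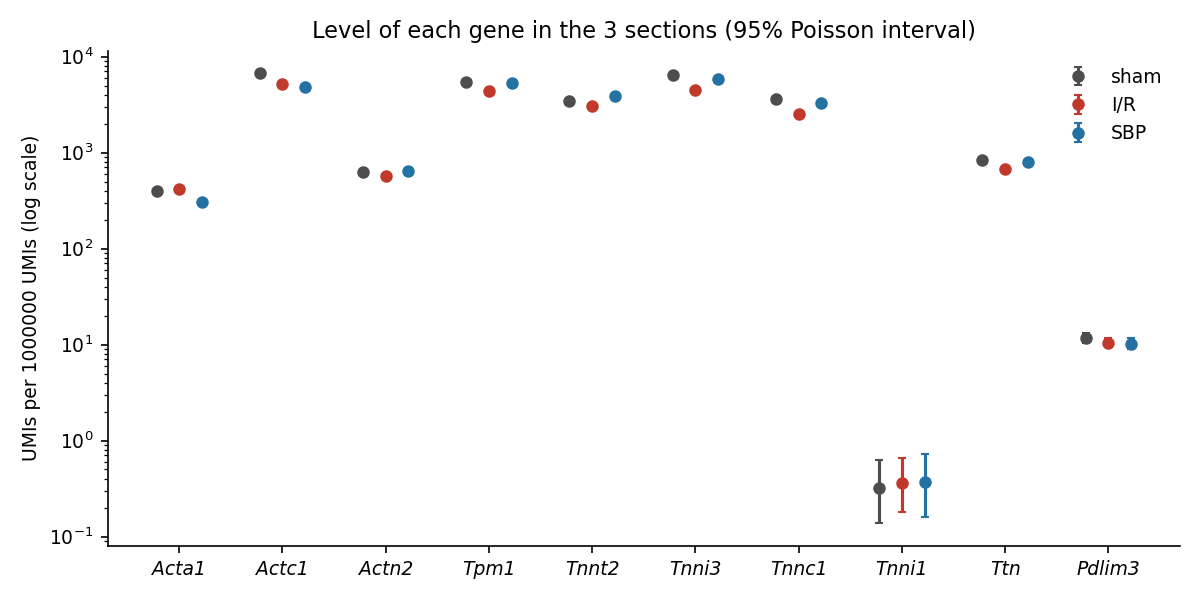
UMIs per 1000000 UMIs of each of the 10 genes (log axis) in the sham, I/R and SBP section, as points with 95% Poisson intervals, which are smaller than the points for most genes. Tnni3 and Tnnc1 had their lowest point in I/R, at 4494 and 2522, and Acta1 its lowest in SBP, at 303.

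Of the 9 members tested, 0 were called in any of the whole-section comparisons, in either direction. For I/R over sham 23.2% of 12231 genes were called higher and 3.49% lower, and the members' median log2 ratio was -0.30 against 0.24 for all genes. For SBP over I/R 1.95% of 12151 genes were called higher and 13.8% lower, with a median of 0.24 for the members against -0.17. For SBP over sham 5.31% of 11768 genes were called higher and 2.77% lower, with medians of -0.15 and 0.082. Thus 8 of 9 members lay below 0 for I/R over sham and 6 of 9 above 0 for SBP over I/R, with differences under the 1.5-fold limit. With median-of-ratios size factors all 9 lay below 0 and 3 (Tnni3, Tnnc1 and Actc1) passed the limit for I/R over sham, and 0 passed it for SBP over I/R, where Actc1 and Pdlim3 turned to 0.065 and 0.12 and 8 lay above 0. All comparisons use the same 3 sections, so they are not independent of each other.

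**Figure D2:**
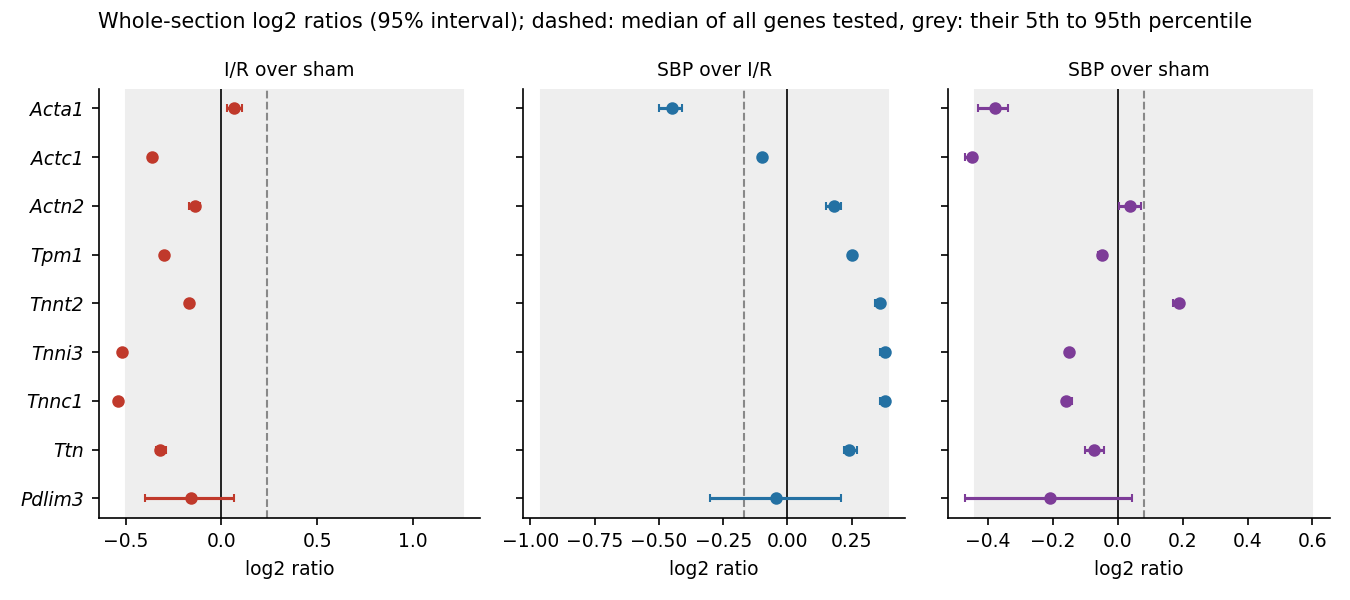
Whole-section log2 ratios of the 9 tested genes for the 3 pairs of sections, as points with 95% intervals, beside the median (dashed) and the 5th to 95th percentile (grey) of all tested genes. The axes differ between panels. Every gene but Acta1 lay left of 0 for I/R over sham, and Acta1, Actc1 and Pdlim3 lay left of 0 for SBP over I/R.

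Together the 10 genes took 2.76% (sham), 2.14% (I/R) and 2.49% (SBP) of all UMIs, or 5.37%, 3.84% and 4.64% of the UMIs outside the mitochondrial genome. In a spot that mixes cells, fewer cardiomyocytes and less RNA per cardiomyocyte cannot be told apart. The cardiomyocyte marker sum given above was likewise lowest in I/R. Markers of other cells moved with the sections too. The 4 neutrophil markers summed to 27.2 CPM in the sham heart, 236 CPM in the I/R heart and 115 CPM in the SBP heart, the 5 macrophage markers to 301, 402 and 295 CPM, and the 5 blood markers to 2886, 4105 and 3860 CPM. Their part in the members' levels was not tested.

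Spots were then divided by Ankrd1. A spot was called Ankrd1-high above 27.0 Ankrd1 UMIs per 10000, the 95th percentile of sham spots. This gave 112 sham spots (5.01%, fixed by the rule), 479 I/R spots (23%, exact binomial interval 21.2% to 24.9%) and 326 SBP spots (16.6%, 15% to 18.4%). These intervals take the spots of a section as independent draws, which neighbouring spots are not. They leave out the error of the sham limit and the spread between hearts, so they do not bear on a difference between groups. The sham spots nearest to the limit had 27.1 and 26.9. Ankrd1-high spots were deeper, with a median of 14927 UMIs against 10502 in the other spots of sham, 17348 against 14103 in I/R and 11990 against 10453 in SBP.

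Acta1 was the member that followed Ankrd1. In sham it was at 993 CPM in Ankrd1-high spots and 349 CPM in the others, in I/R at 738 and 295 CPM, and in SBP at 559 and 247 CPM. The log2 ratio of high over other spots was 1.51 for the sham heart (1.44 to 1.58), 1.32 for the I/R heart (1.27 to 1.37) and 1.18 for the SBP heart (1.10 to 1.25). It ranked 206 of 10642 tested genes in sham, 72 of 11408 in I/R and 149 of 10469 in SBP. The ratio in I/R stood at 1.18 when the top 5% of each section's own spots was taken. Acta1 is also the actin of skeletal muscle. Of the 7 skeletal muscle markers, which include Ckm, 6 had UMIs in sham, all but Myh4. In I/R and in SBP 4 had UMIs, with Myh1, Myh2 and Myh4 at 0. They summed to 1377 CPM in high and 1946 CPM in other sham spots, 1005 and 1571 in I/R, and 1120 and 1588 in SBP. The 4 atrial markers, which include the load-responsive Nppa, summed to 522 CPM in high and 456 CPM in other spots of sham, 2442 and 670 CPM in I/R, and 2755 and 1081 CPM in SBP. The 5 fibroblast markers summed to 1496 and 829 CPM in sham, 919 and 782 CPM in I/R, and 593 and 682 CPM in SBP. The 4 neutrophil markers summed to 58.5 and 24.7 CPM in sham, 269 and 224 CPM in I/R, and 263 and 82.6 CPM in SBP. The part of these signals in the Acta1 ratio was not tested.

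Within each kind of spot Acta1 was lower in I/R than in sham, although the whole sections were nearly level. As a log2 ratio, I/R over sham was -0.43 within Ankrd1-high spots (-0.50 to -0.35) and -0.24 within the others (-0.29 to -0.19), against 0.067 for whole sections. Ankrd1-high spots held 27.0% of the UMIs in I/R and 7.35% in sham, so the I/R total gave more weight to spots rich in Acta1. SBP over I/R, the ratio was -0.40 within high spots (-0.47 to -0.33) and -0.26 within the others (-0.31 to -0.20).

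Actc1 did not follow Acta1. In sham it was at 4973 CPM in Ankrd1-high spots and 6814 CPM in the others, a log2 ratio of -0.45 (-0.48 to -0.42). In I/R it was at 5582 and 5075 CPM, a ratio of 0.14 (0.12 to 0.15), and in SBP at 5141 and 4813 CPM, a ratio of 0.095 (0.073 to 0.12). The sign of the pooled ratio thus differed between sham and the ligated hearts, a difference that has no replicate. In the ligated hearts the positive sign came from the spots above the 99th percentile of sham Ankrd1, at 6545 (I/R) and 5807 CPM (SBP). The high spots between the 95th and 99th percentile, 300 of 479 in I/R and 212 of 326 in SBP, were at 4916 and 4768 CPM, below the other spots of their sections. Over the thinned spots described further on, the Spearman correlation of Actc1 with Ankrd1 was -0.19 (sham), -0.055 (I/R) and -0.0100 (SBP). The pooled sign held under the other Ankrd1 limits, although the I/R and SBP ratios were only 0.0072 and 0.016 without mitochondrial UMIs. It was lost when spots were grouped by the summed UMIs of 10 genes of inflammation and wound repair, such as Spp1, Timp1 and Arg1, which gave -0.71 (sham), -0.52 (I/R) and -0.40 (SBP).

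Acta1 per 100 Actc1 UMIs was 20.0 in the Ankrd1-high spots of sham (19.0 to 21.0), 13.2 in those of I/R (12.9 to 13.6) and 10.9 in those of SBP (10.4 to 11.4). In the other spots it was 5.11 (5.0 to 5.23), 5.81 (5.67 to 5.96) and 5.13 (4.97 to 5.28). The sections differed most in the high spots, where sham was the highest, and little in the rest. Without the spots high in the injury genes, the whole-section ratio of Acta1 to Actc1 was 0.0552 (sham), 0.0546 (I/R) and 0.0539 (SBP). Within the spots high in the injury genes it was 0.167 (sham), 0.159 (I/R) and 0.117 (SBP). By this division I/R was not above sham within either kind of spot, while by Ankrd1 it was above sham in the other spots. Spots high in the injury genes made up 36.5% of the I/R section and 18.1% of SBP. Their 5.01% of sham was fixed by the rule. The part of this mix in the whole-section ratio was not tested.

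**Figure D3:**
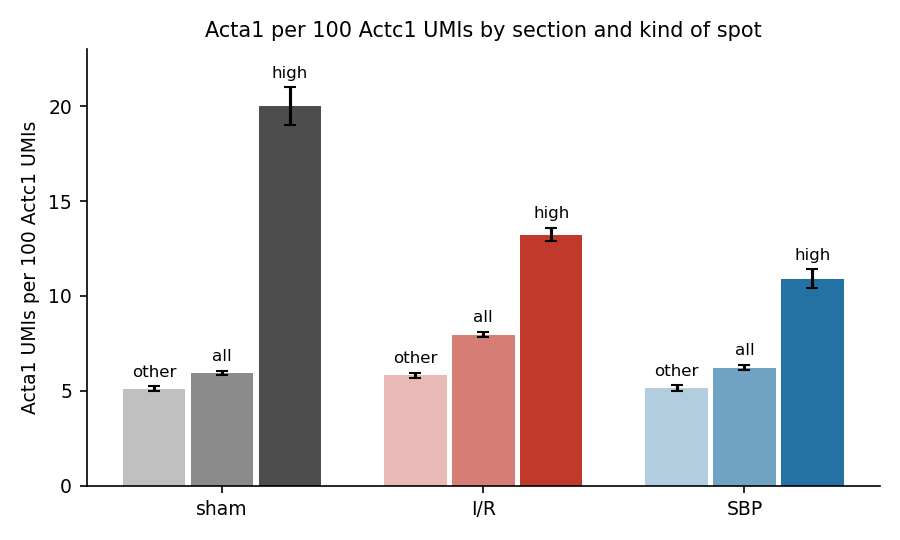
Acta1 UMIs per 100 Actc1 UMIs in the other, all and Ankrd1-high spots of each section, as bars from 0 with 95% binomial intervals. The ratio in Ankrd1-high spots was 20.0 in the sham heart, 13.2 in the I/R heart and 10.9 in the SBP heart, while the other spots stood between 5.11 and 5.81.

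Tnni3 ran against Ankrd1. In sham it was at 4311 CPM in Ankrd1-high spots and 6635 CPM in the others, in I/R at 3042 and 5032 CPM, and in SBP at 4144 and 6204 CPM. High spots were lower in each section, with log2 ratios of -0.62 (-0.65 to -0.59), -0.73 (-0.75 to -0.71) and -0.58 (-0.61 to -0.56), the last just short of the 1.5-fold limit. The cardiomyocyte marker sum was also lower there, at 31557 against 44100 CPM in the sham heart, 23519 against 35482 CPM in the I/R heart and 30550 against 42133 CPM in the SBP heart, and its part was not tested. The other cardiac troponin genes did not share the size of this difference. Tnnt2 had log2 ratios of -0.068, -0.055 and -0.063, and Tnnc1 of -0.12, 0.073 and 0.043 in sham, I/R and SBP. Without mitochondrial UMIs the Tnnc1 ratios of I/R and SBP turned to -0.057 and -0.037.

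Of the remaining members, Pdlim3 was at 15.9 CPM in the Ankrd1-high spots of I/R and 8.56 CPM in its other spots, a log2 ratio of 0.89 (0.56 to 1.22) on 130 and 189 UMIs. In sham the ratio was 0.50 (-0.093 to 1.05) and in SBP 0.25 (-0.25 to 0.72), with intervals that include 0. Ttn had ratios of -0.24 (-0.32 to -0.16), -0.085 (-0.13 to -0.040) and -0.27 (-0.33 to -0.21). Tpm1 lay between -0.10 and -0.077 and Actn2 between -0.047 and 0.079. These ratios were all below 1.5-fold, apart from that of Pdlim3 in I/R.

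In sham 1 of 9 tested members was called higher in Ankrd1-high spots (Acta1) and 1 lower (Tnni3), where 28.3% of 10642 genes were higher and 6.08% lower. In I/R 2 were higher (Acta1 and Pdlim3) and 1 lower (Tnni3), where 13.6% of 11408 genes were higher and 3.88% lower. In SBP 1 was higher (Acta1) and 0 lower, where 16.6% of 10469 genes were higher and 5.02% lower. The members' median ratio was -0.095, 0.073 and -0.047 against 0.31, 0.24 and 0.21 for all genes. In every section 7 of the 9 lay below the median gene, while Acta1 and Pdlim3 lay above it.

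**Figure D4:**
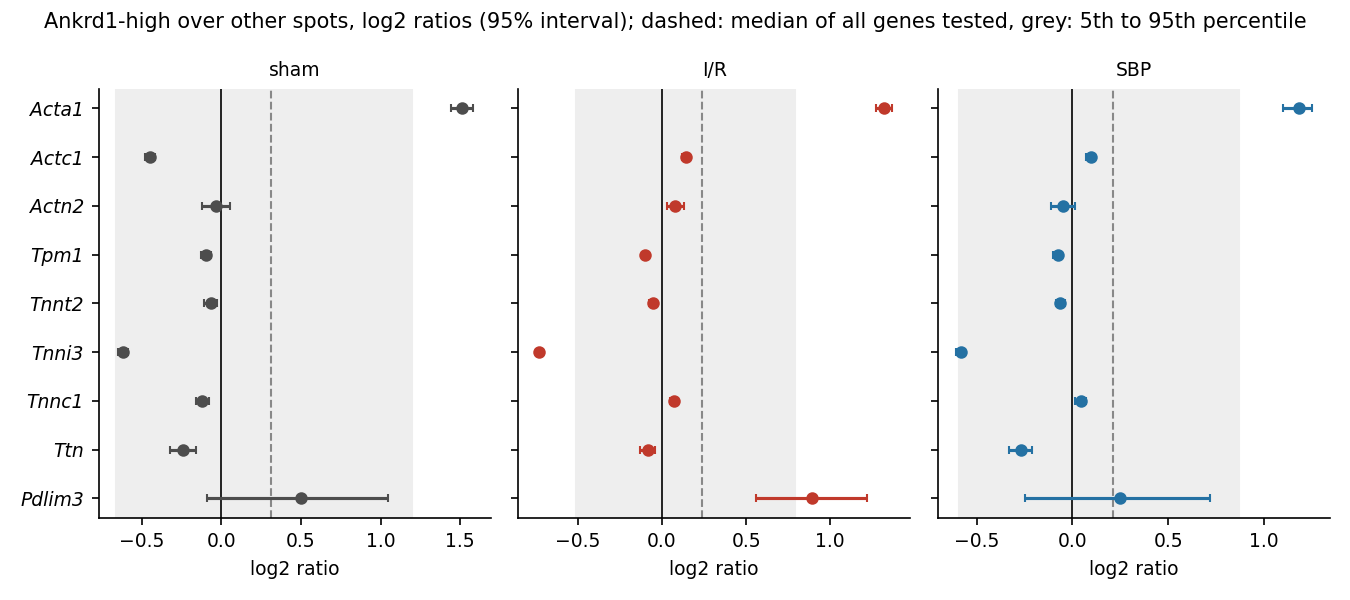
Log2 ratios of Ankrd1-high over other spots for the 9 tested genes in each section, as points with 95% intervals, beside the median (dashed) and the 5th to 95th percentile (grey) of all tested genes. The axes differ between panels. Acta1 lay right of the grey band in each section, at 1.51, 1.32 and 1.18, and Tnni3 was the lowest point, left of the band in I/R only.

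The patterns of Acta1 and Tnni3 were graded. From spots at or below the sham median of Ankrd1 to spots above its 99th percentile, Acta1 went from 234 to 1111 CPM in the sham heart, from 149 to 880 CPM in the I/R heart and from 167 to 628 CPM in the SBP heart, with each step higher than the one before. Tnni3 went the other way, from 7039 to 4126 CPM in the sham heart, 5917 to 2917 CPM in the I/R heart and 6887 to 3981 CPM in SBP. At the same Ankrd1 level sham had the most Acta1 in every bin. Actc1 had no such grade in the ligated hearts. From the lowest to the highest bin it was at 6994, 7028, 6188, 5017 and 4854 CPM in sham, 5234, 5576, 4630, 4916 and 6545 CPM in I/R, and 4786, 5030, 4729, 4768 and 5807 CPM in SBP, so that only the top bin stood above all others there. The top bin held 23 sham, 179 I/R and 114 SBP spots.

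**Figure D5:**
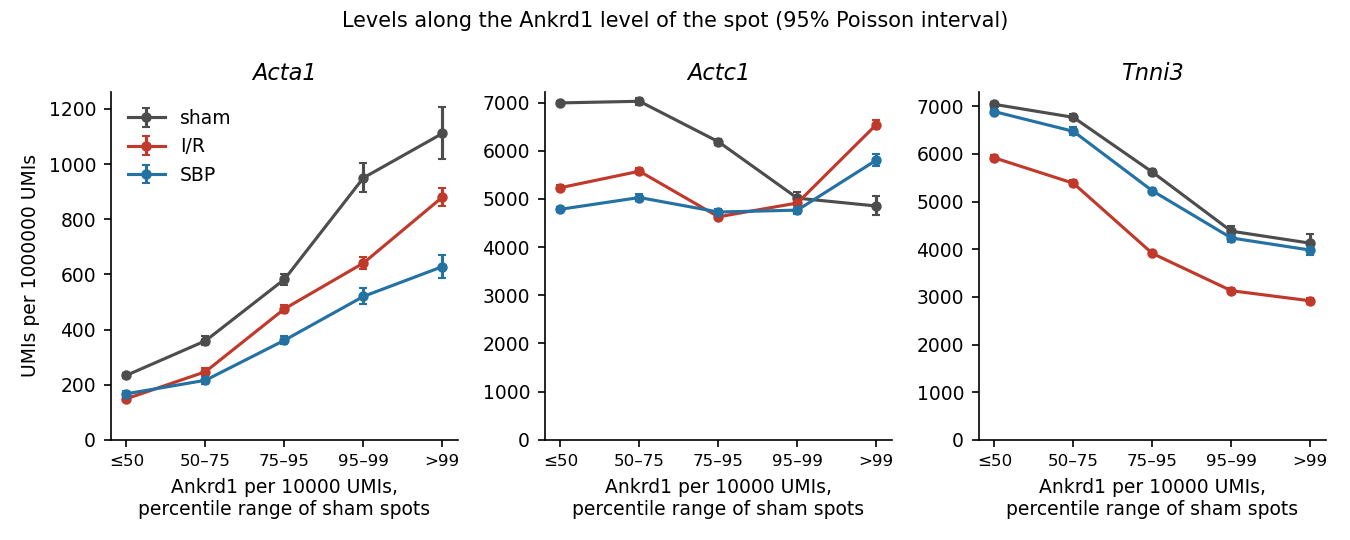
Levels of Acta1, Actc1 and Tnni3 (UMIs per 1000000 UMIs, axes from 0) in 5 bins of spots by Ankrd1 per 10000 UMIs, with bin limits at the 50th, 75th, 95th and 99th percentile of sham spots. Points carry 95% Poisson intervals. Acta1 climbed and Tnni3 declined with Ankrd1 in all sections, and Actc1 in I/R stayed between 4630 and 5576 until the top bin, at 6545, while sham ended at 4854.

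Ankrd1 and the injury genes marked partly different spots. A spot was called high in these injury genes above 12.5 of their UMIs per 10000, again the 95th percentile of sham spots. In I/R 760 spots were high in them and 318 of them were also Ankrd1-high. In the 442 I/R spots high in injury genes only, the genes of cardiac actin, tropomyosin, the cardiac troponins and titin were low. Actc1 was at 2852 CPM against 5620 CPM in the 1161 spots high in neither, Tnni3 at 2158 against 5737 CPM, Tnnt2 at 1621 against 3455 CPM and Ttn at 355 against 768 CPM. Acta1 and Pdlim3 went against this, at 456 and 13.6 CPM in the injury-only spots and 255 and 7.34 CPM in those high in neither. In the 161 spots high in Ankrd1 only, Acta1 was at 654 CPM, Actc1 at 6548 CPM and Tnni3 at 3607 CPM. The 318 spots high in both had Actc1 at 4999 CPM, Tnni3 at 2702 CPM and Acta1 at 789 CPM. In I/R low Tnni3 without low Actc1 was therefore seen only where Ankrd1 alone was high. Where injury genes were high, with or without high Ankrd1, both genes lay below the spots high in neither.

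The same division in SBP gave smaller contrasts between injury-only spots and those high in neither. Its 210 injury-only spots had Actc1 at 3475 CPM against 4972 CPM in the 1424 spots high in neither, Tnni3 at 3924 against 6474 CPM, and Acta1 at 352 against 234 CPM. In sham 72 injury-only spots had Actc1 at 3963 CPM against 6912 CPM and Acta1 at 515 against 343 CPM. In the spots high in Ankrd1 only, Actc1 was above the level of spots high in neither in SBP, at 5862 against 4972 CPM, and below it in sham, at 5312 against 6912 CPM. The spots high in both had Actc1 below that level in each, at 4240 CPM in SBP (145 spots) and 4406 CPM in sham (40 spots).

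Single spots were compared after thinning each to 6500 UMIs, so that 132 sham, 202 I/R and 213 SBP spots of lower depth were dropped. A thinned spot had a median of 44 Actc1 UMIs in sham, with 26 at the 5th and 61 at the 95th percentile. In I/R these values were 34, 10 and 57, and in SBP 31, 14 and 56. The variance over the mean, which is 1 for spots that differ by counting alone, was 2.52, 6.10 and 5.13 for Actc1 and 2.32, 5.51 and 3.16 for Tnni3. Both genes were thus less even across the I/R section than across sham. Acta1 had a median of 2, 2 and 1 UMIs and a maximum of 46, 31 and 28, with a variance over mean of 4.31, 4.26 and 3.28.

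Spots poor in the set were most frequent in the I/R section. The 1st percentile of the members' sum in thinned sham spots was 98 UMIs. Below it lay 21 of 2102 sham spots (0.999%, fixed by the rule), 278 of 1880 I/R spots (14.8%, 13.2% to 16.5%) and 42 of 1747 SBP spots (2.40%, 1.74% to 3.24%). As above, these binomial intervals take the spots of a section as independent draws and hold no spread between hearts. All 21 sham spots below 98 UMIs were high in injury genes, as were 277 of the I/R spots and 39 of the SBP spots below it. The overlap was thus not limited to the ligated hearts. Of the spots below 98 UMIs, 3 (sham), 81 (I/R) and 8 (SBP) were Ankrd1-high.

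Across the thinned spots of the I/R section, Acta1 had a Spearman correlation of 0.43 with Ankrd1, the highest of 2585 genes ranked, and Ankrd1 also came first in sham (0.34) and SBP (0.35). The next in I/R were Des (0.38), the intermediate filament of muscle, Cryab (0.37), a small heat shock protein that binds it, Nppb (0.37), the B-type natriuretic peptide, and Xirp2 (0.34), an actin-binding protein of the intercalated disc. They were picked by their I/R values and were lower in the other sections. In sham Des was at 0.16, Cryab at 0.17, Nppb at 0.21 and Xirp2 at 0.095, and in SBP at 0.21, 0.22, 0.25 and 0.16. Among Actc1, Actn2, Tpm1, Tnnt2, Tnni3, Tnnc1 and Ttn every correlation was higher in I/R than in sham. Actc1 and Tpm1 were at 0.49 in I/R, 0.20 in sham and 0.34 in SBP, and Tpm1 and Tnni3 at 0.50, 0.24 and 0.26. Pairs with Pdlim3 or Tnni1, which have few UMIs, went both ways. Acta1 correlated with Tnni3 at -0.17 in the sham heart, -0.29 in the I/R heart and -0.24 in the SBP heart. These are descriptions over 2102, 1880 and 1747 spots that share a library and their thinned depth.

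Related genes were read from lists chosen with earlier results of these data known. Of 22 other thin filament and actin genes, 20 were tested for I/R over sham, with 5 higher (Tpm3, Tpm4, Actb, Actg1 and Nrap), 1 lower (Acta2) and a median of 0.063 beside 0.24 for all genes, of which 23.2% were higher and 3.49% lower. Tpm3, a tropomyosin of slow muscle and non-muscle cells, had the largest rise, from 43.2 to 114 CPM (log2 ratio 1.40, 1.3 to 1.5), and Acta2, smooth muscle actin, fell from 254 to 168 CPM (-0.60, -0.65 to -0.55). For SBP over I/R 7 of 20 were lower and 0 higher, where 13.8% and 1.95% of all genes were. The median was -0.13 beside -0.17 for all genes. Lowest was Actg2, another smooth muscle actin, at 0.878 against 3.64 CPM (-2.05, -2.84 to -1.34), and highest was Nebl, a nebulin-like Z-disc protein, at 0.30. For SBP over sham 1 of 20 was higher (Tpm3, 0.61) and 3 lower, where 5.31% and 2.77% of all genes were, with Actg2 lowest at -2.11. The 5 smooth muscle markers, which include Acta2, summed to 335, 256 and 138 CPM in the sham heart, I/R and SBP. In Ankrd1-high over other spots, 5 of 19 were higher and 1 lower in sham, where 28.3% and 6.08% of all genes were. In I/R 4 of 20 were higher and 2 lower, beside 13.6% and 3.88%. In SBP 4 of 18 were higher and 1 lower, beside 16.6% and 5.02%. The medians were 0.13, 0.16 and 0.022 beside 0.31, 0.24 and 0.21. The largest rise there was Tpm3 in sham (1.10), Nrap, an actin anchor of the intercalated disc, in I/R (0.89) and Tpm4 in SBP (0.83). The largest negative ratios there were those of Tnnt1, slow skeletal troponin T, in sham (-0.87, on 12 UMIs in the high spots), and of Tmod4, which caps actin filaments, in I/R (-0.84) and SBP (-0.62, -1.45 to 0.12).

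Of 29 Z-disc and titin partners, 27 were tested. For I/R over sham 10 were higher and 1 lower, with a median of 0.23 beside 0.24 for all genes, of which 23.2% were higher and 3.49% lower. Xirp2 rose from 146 to 469 CPM (1.68, 1.63 to 1.73), and Tcap, the telethonin that caps titin, fell from 1928 to 1229 CPM (-0.65, -0.67 to -0.63). For SBP over I/R both turned, with Tcap higher by 0.74 (0.72 to 0.76) and Xirp2 lower, at -1.04 (-1.08 to -0.99). In that comparison 1 of 27 was higher and 4 lower, where 1.95% and 13.8% of all genes were. For SBP over sham 4 of 27 were higher and 1 lower, where 5.31% and 2.77% of all genes were. Highest was Fhl1 (1.16), a LIM protein that binds titin, and lowest was Myot (-0.76), which crosslinks actin at the Z-disc. Fhl1 had the largest rise in Ankrd1-high spots of all sections, at 1.62 in the sham heart, 1.80 in the I/R heart and 1.67 in the SBP heart. The largest fall there was that of Myom2, an M-line protein, in sham (-1.07) and of Tcap in I/R (-1.25) and SBP (-0.96). In Ankrd1-high spots 7 of 27 partners were higher and 3 lower in sham, where 28.3% and 6.08% of all genes were. In I/R 11 were higher and 3 lower, beside 13.6% and 3.88%, and in SBP 8 and 3, beside 16.6% and 5.02%. The medians were 0.17, 0.44 and 0.43 beside 0.31, 0.24 and 0.21.

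Of 12 genes of the serum response factor and myocardin axis, 2 were higher for I/R over sham (Srf and Mrtfa, an actin-sensing coactivator) and 1 lower (Tbx5, a cardiac transcription factor), with a median of 0.019 beside 0.24 for all genes, of which 23.2% were higher and 3.49% lower. Mrtfa rose from 4.82 to 9.99 CPM (1.05, 0.74 to 1.37) and Tbx5 fell from 5.93 to 3.77 CPM (-0.65, -1.02 to -0.29). For SBP over I/R 2 of 12 were lower and 0 higher, where 13.8% and 1.95% of all genes were. The lower ones were Mrtfa and Srf, the latter at 7.77 against 15.9 CPM (-1.04, -1.3 to -0.78), and Tbx5 was highest at 0.55. For SBP over sham 0 were called, where 5.31% of all genes were higher and 2.77% lower, with Myocd at 0.50 and Srf at -0.39 as the extremes. In Ankrd1-high spots of sham 2 of 12 were higher, where 28.3% of all genes were. They were Myocd (0.77, with 84 UMIs in the whole section) and Mrtfa (0.84, -0.051 to 1.62, on 15 UMIs in the high spots). In those of I/R and SBP 0 were higher, where 13.6% and 16.6% of all genes were. The highest ratio was that of Srf, at 0.58 (0.31 to 0.86) in I/R and 0.40 (-0.16 to 0.93, on 38 UMIs) in SBP. The lowest were those of Tbx5 in I/R (-0.47, -1.19 to 0.19, on 24 UMIs) and Mef2a in SBP (-0.35, -0.54 to -0.16).

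Of the 10 injury genes, which served to divide spots, 9 were higher for I/R over sham, where 23.2% of all genes were. Arg1 was highest at 3.66 and Lcn2 lowest at 0.19. For SBP over I/R 9 were lower, where 13.8% of all genes were, with Tnc lowest at -1.72 and Lcn2 highest at 0.54. For SBP over sham 8 were higher, where 5.31% of all genes were, and the values ran from Arg1 at 2.13 down to Postn at -0.22. In Ankrd1-high spots 10, 6 and 9 were higher in sham, I/R and SBP, where 28.3%, 13.6% and 16.6% of all genes were. Timp1 was highest in sham (2.64), Postn highest (1.32) and Spp1 lowest (-0.018) in I/R, and Tnc highest (1.92) and Spp1 lowest (0.46) in SBP.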

How the data were processed

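The authors deposited raw counts of UMIs per gene and spot for 3 sections, made with Space Ranger 1.3.0 and mm10 per the submitters' processing notes. The study's methods give a different version and a human genome, but all gene identifiers in the files are from mouse. A spot needed 200 detected genes, and 1 to 3 spots per section failed this. UMIs were summed over spots and divided by all UMIs. Thinning was a hypergeometric draw with a fixed seed, and the fold limit was 1.5. The labels gave each section's group, and 0 columns belonged to no sample. The members, lists and rules were chosen with earlier results of these data known. Named were all 10 members, Ankrd1, the gene with the largest rise and the largest fall of each of 4 lists in each comparison, and the 5 genes most correlated with Acta1 among those with at least 1000 UMIs. Of these genes, 1 is not reported here. Other genes in the text were named because a count of 5 or fewer is spelled out. Of 9 marker lists, those touching a result are given. The endothelial markers summed to 642 to 715 CPM, the fibroblast markers to 666 to 878 CPM, and the atrial markers to 461 (sham), 1149 (I/R) and 1384 CPM (SBP), with Sln at 0 in I/R and SBP. The skeletal muscle list, which holds Ckm, summed to 1418 to 1905 CPM. Barcodes mark positions on the slide, and 1093 were shared by all sections. Ratios and intervals were tried on simulated Poisson counts of whole sections. These hold no variation between spots or mice, so they check the calculation only. Scripts ran in Python 3.11.15 on scipy 1.17.1, numpy 2.4.6, matplotlib 3.10.9 and pandas 2.3.3. TMM factors followed their published formula.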

Additional observations from a re-analysis of the deposited data

Results flagged for a closer look

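Of the members, 2 had log2 ratios of Ankrd1-high over other spots on opposite sides of 0 in different sections, each with a counting interval that does not include 0. For Actc1 the sham ratio was -0.45, against 0.14 for I/R and 0.095 for SBP. In the ligated hearts the positive Actc1 sign came from the spots above the 99th percentile of sham Ankrd1 (6545 CPM for I/R, 5807 CPM for SBP), since the high spots below that percentile were at 4916 CPM in I/R against 5075 CPM in its other spots, and at 4768 against 4813 CPM in SBP. For Tnnc1 the sham ratio was -0.12, against 0.073 for I/R and 0.043 for SBP. Without mitochondrial UMIs Tnnc1 lay below 0 in each section, at -0.22, -0.057 and -0.037, and Actc1 was at -0.56, 0.0072 and 0.016. With spots grouped by injury genes both members lay below 0 in each section, Actc1 at -0.71, -0.52 and -0.40 and Tnnc1 at -0.27, -0.35 and -0.13. None of the ratios with spots grouped by Ankrd1 reached 1.5-fold, and the difference between sections was not tested because each group has 1 section.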

How the results depend on the processing

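No paired analysis was possible because every group consists of a single section. Settings that leave out the spots high in injury genes were chosen after seeing the data. The main results are the Acta1 log2 ratios, the whole-section Acta1 to Actc1 ratio and the counts of members called. For these, a value is listed here where it left the counting interval of the value reported, and a count where it moved by over 1.5 times. Values of the other members that moved are counted below but not listed. The cause was not tested.

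The number of members called lower for I/R over sham was 2 without mitochondrial UMIs, 2 with TMM factors, 3 with median-of-ratios size factors and 1 with equal weight for each spot. For Acta1 over whole sections, the log2 ratios of I/R over sham, SBP over I/R and SBP over sham were -0.048, -0.40 and -0.45 without mitochondrial UMIs, -0.15, -0.30 and -0.46 with TMM factors, -0.17, -0.29 and -0.46 with median-of-ratios size factors, and -0.26, -0.20 and -0.46 without injury-high spots. The sign for I/R over sham therefore depended on the scaling. The median gene moved by -0.24 for I/R over sham and by 0.16 for SBP over I/R with median-of-ratios size factors. The Acta1 to Actc1 ratio was 0.0812 in I/R with equal weight for each spot, and 0.0552, 0.0546 and 0.0539 in sham, I/R and SBP without injury-high spots.

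For Ankrd1-high over other spots, Acta1 kept its direction in all settings. In sham its log2 ratio was 1.37 after thinning, 0.89 with spots grouped by injury genes, 1.41 without mitochondrial UMIs, 1.59 with equal weight and 1.61 without injury-high spots. In I/R it was 1.49 with the 90th percentile, 1.18 with each section's own 95th, 1.24 with Ankrd1 per non-mitochondrial UMIs, 1.02 with injury genes, 1.19 without mitochondrial UMIs and 1.2 with equal weight. In SBP it was 1.28 with the 90th percentile, 0.72 with injury genes, 1.10 without mitochondrial UMIs, 1.08 with equal weight and 1.26 without injury-high spots. Members called higher in sham numbered 2 with the 90th percentile, the 99th percentile and thinning, where Pdlim3 joined Acta1. Members called lower in sham numbered 0 with the 90th percentile and without injury-high spots, and 3 with injury genes. With injury genes the count was 1 higher and 4 lower in I/R, and 2 higher and 1 lower in SBP. Without mitochondrial UMIs it was 1 lower in SBP (Tnni3). Pdlim3 and Tnni1 are limited by depth, at 221 to 319 and 8 to 11 UMIs per section. Of the values of the main results under the alternatives run, 127 stayed within these limits and 47 moved, and for the other single-member values 251 stayed and 235 moved. Some settings could hardly move a whole-section value, namely 200 UMIs per gene, 1000 UMIs per spot and no filter on spots. These counts therefore do not measure stability. The whole-section Acta1 ratios moved with every change of scaling. No called value changed sign under any alternative run, and all called values were ratios of Ankrd1-high over other spots.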

Other observations

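The troponin subunits did not keep a fixed ratio across spots, a pattern chosen after the values were seen. Over whole sections Tnni3 per Tnnc1 UMI was 1.77 (sham), 1.78 (I/R) and 1.78 (SBP). Within sections it was 1.27 in Ankrd1-high and 1.80 in other spots of sham, 1.16 and 2.02 in I/R, and 1.24 and 1.91 in SBP. Tnnt2 per Tnnc1 UMI, by contrast, was 0.942 (sham), 1.21 (I/R) and 1.2 (SBP), and differed less between the kinds of spot, at 0.973 and 0.940 in sham, 1.14 and 1.24 in I/R, and 1.13 and 1.21 in SBP. Tpm1 per Actc1 UMI was 0.816 (sham), 0.849 (I/R) and 1.08 (SBP). These ratios do not depend on the scaling of the sections, and no replicate bears on them.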
